A study of Mus musculus with 32 samples.

Results

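The T cell receptor complex and its coreceptors are described here in 32 mouse liver tumours by 10 genes: the receptor chain gene Trac, the CD3 and zeta chain genes Cd3d, Cd3e, Cd3g and Cd247, the coreceptor genes Cd4, Cd8a and Cd8b1, the kinase gene Lck and the adhesion receptor gene Cd2. The rule that chose them lists gene names and uses no measured value, although it was set with earlier results of these data known. They are 10 of the 54446 genes in the deposited count tables. All 10 passed the filter on low counts in each of the 3 experiments, so every member was tested in every comparison. At 20 mg/kg/day of regorafenib, Cd3d, Cd3e, Cd3g and Cd8b1 were about 3-fold higher than under vehicle and passed the test, though each of these calls was lost in 11 or 12 of 17 alternative analyses. In every other comparison, no member passed it.

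The T cell receptor binds peptide held by MHC molecules through its variable chains and passes the signal on through CD3 and zeta chains, which carry the cytoplasmic signalling motifs. CD4 and CD8 bind MHC class II and class I and bring the kinase Lck to the receptor, where it phosphorylates those motifs. In tumours, transcripts of these genes are commonly read as a measure of T cell presence.

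RNA was sequenced from tumours formed by the mouse hepatoma line BNL-MEA under the liver capsule of BALB/c mice. All mice carried the same tumour line. The study describes sampling after 5 days of treatment for vehicle, regorafenib at 5 mg/kg/day and DC-101. Its text gives no day of sampling for regorafenib at 20 mg/kg/day. The day of sampling under anti-PD1, and of the tumours compared with it, is not given in the sources used here. The labels place the libraries in 3 batches, named here after their arms as the dose experiment, the DC-101 experiment and the anti-PD1 experiment. In the dose experiment, 4 tumours received vehicle, 3 the low dose of regorafenib (5 mg/kg/day) and 3 its high dose (20 mg/kg/day). This oral drug inhibits several kinases, VEGF receptors among them. The DC-101 experiment had 4 vehicle tumours, 3 at the low dose and 3 given DC-101, an antibody to mouse VEGFR2 injected at 800 ug on days 1, 3 and 5. In the anti-PD1 experiment the groups were vehicle, the low dose, an antibody to the checkpoint receptor PD1, and the low dose together with that antibody (combination), each with n = 3.

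Libraries held between 16.8 M and 27.7 M counts on genes. High dose replicate 1 had the smallest TMM scaling factor of all libraries (0.678). Hepatocyte content differed widely between libraries: the summed level of 20 hepatocyte genes ranged from 41.4 to 134000 CPM (counts scaled to a common library size by TMM). T cell genes were a small share of the RNA, and the summed level of the 10 members ranged from 7.84 to 68.2 CPM over the 11 vehicle tumours. Counts per library ran from 2 for Cd247 in one vehicle tumour to 419 for Lck in one combination tumour. At 2 counts the exact 95% Poisson interval is 0.242 to 7.22, and at 419 it is 380.0 to 461.0, for counting error only.

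Cd3g, Cd3d and Cd3e lie side by side on chromosome 9 of GRCm38. Cd3g (44969572 to 44980431, minus strand) and Cd3d (44981786 to 44987339, plus strand) are read away from each other from start sites 1355 bases apart, and Cd3e (44998740 to 45009627, minus strand) ends 11401 bases beyond Cd3d. The CD8 genes are neighbours on chromosome 6, with Cd8b1 (71322788 to 71337494) ending 35933 bases before Cd8a (71373427 to 71379173), both on the plus strand. Cd4 is on the same chromosome at 124864692 to 124888221, minus strand. Trac is on chromosome 14 (54220521 to 54224206, plus strand), Cd247 on chromosome 1 (165788681 to 165877277, plus strand), Lck on chromosome 4 (129548344 to 129573641, minus strand) and Cd2 on chromosome 3 (101275899 to 101287939, minus strand). Trac is annotated as a T cell receptor constant gene and the other 9 as protein coding.

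Promoter sequence is shown for the 3 neighbouring CD3 genes, all of which passed the test at the high dose, and for Cd247, the signalling chain gene on another chromosome, which did not. The sequences are from RefSeq on GRCm38.p6, run from 250 bases before to 50 bases after a start site and are written 5′ to 3′ on the gene's strand. Capitals mark AGGAAG, a core that ETS family factors can bind, or its reverse complement CTTCCT.
Cd3g, chr9:44980382-44980681, minus strand: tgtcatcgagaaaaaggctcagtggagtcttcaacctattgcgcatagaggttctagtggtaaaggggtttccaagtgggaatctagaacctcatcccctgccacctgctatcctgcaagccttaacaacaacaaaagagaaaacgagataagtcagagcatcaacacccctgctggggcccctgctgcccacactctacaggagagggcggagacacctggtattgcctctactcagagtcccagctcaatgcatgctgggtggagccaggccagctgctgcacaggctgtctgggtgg
Cd3d, chr9:44981536-44981835, plus strand: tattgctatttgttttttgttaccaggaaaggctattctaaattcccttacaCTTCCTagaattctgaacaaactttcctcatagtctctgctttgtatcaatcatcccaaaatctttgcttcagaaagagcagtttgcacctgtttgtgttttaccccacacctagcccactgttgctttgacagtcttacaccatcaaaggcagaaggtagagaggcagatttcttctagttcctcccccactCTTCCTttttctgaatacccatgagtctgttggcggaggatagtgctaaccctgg
Cd3e, chr9:45009562-45009861, minus strand: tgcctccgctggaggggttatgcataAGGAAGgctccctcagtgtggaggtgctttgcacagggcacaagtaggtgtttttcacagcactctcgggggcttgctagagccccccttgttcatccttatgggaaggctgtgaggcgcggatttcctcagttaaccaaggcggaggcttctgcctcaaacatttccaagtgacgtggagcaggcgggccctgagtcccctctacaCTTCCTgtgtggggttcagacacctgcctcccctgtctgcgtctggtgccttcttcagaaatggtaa
Cd247, chr1:165788431-165788730, plus strand: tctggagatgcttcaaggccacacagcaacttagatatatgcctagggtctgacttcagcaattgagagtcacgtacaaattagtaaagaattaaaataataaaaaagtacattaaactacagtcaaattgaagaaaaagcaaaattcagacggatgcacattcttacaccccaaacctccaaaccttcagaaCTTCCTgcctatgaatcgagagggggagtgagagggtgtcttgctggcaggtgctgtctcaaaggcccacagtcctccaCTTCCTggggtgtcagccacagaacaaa
AGGAAG on either strand was found 2 times each in the windows of Cd3d, Cd3e and Cd247 and 0 times in that of Cd3g, while 35.4% of the 32851 promoters in the RefSeq table hold it at least once. TATAAA was in none of the 4 windows (0 matches), against 13.6% of all promoters. A match is a description of the letters only. RefSeq windows were matched for 6 of the 10 members, Cd3d, Cd3e, Cd3g, Cd247, Cd8a and Lck. In the windows not shown, AGGAAG was found 3 times and 1 time in the 2 of Lck and 0 times in that of Cd8a.

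Levels can be compared between genes only per length, here as CPM per kb of exons. By the median over the 32 libraries, Trac (2.65 CPM per kb) and Lck (2.34) were highest, Cd8b1 (1.23) and Cd8a (1.2) followed, and Cd247 (0.162) was lowest. Cd3g (0.961), Cd3d (0.835), Cd2 (0.665), Cd3e (0.447) and Cd4 (0.43) lay between. Neighbours in this order were not always apart: Trac was above Lck in 21 of 32 libraries, Cd8b1 above Cd8a in 18, Cd3d above Cd2 in 14 and Cd3e above Cd4 in 21. Lck was above Cd8b1 in 30 libraries and Cd4 above Cd247 in 29.

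**Figure D1:**
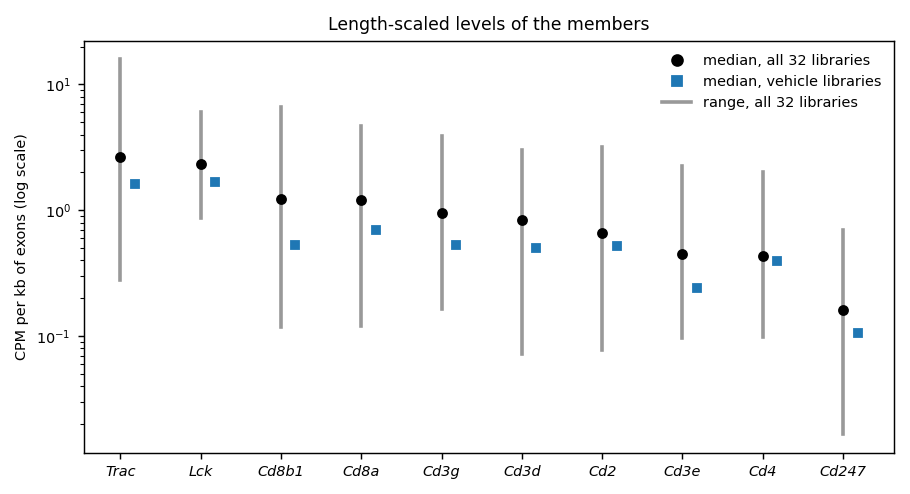
Length-scaled levels of the 10 members, in CPM per kb of exons on a log axis, ordered by the median over all 32 libraries. Black points are that median, blue squares the median of the 11 vehicle libraries and grey lines the full range. Trac (2.65) and Lck (2.34) are highest, Cd247 (0.162) is lowest, and the range of Lck is the shortest.

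The spread between libraries was large for every member but Lck. The highest library exceeded the lowest by 56.3-fold in CPM for Cd8b1, 56.1-fold for Trac and 41.7-fold for Cd3d, but by 6.96-fold for Lck. The SD of the log2 CPM over all libraries was 0.66 for Lck and between 1.05 and 1.24 for the other 9 genes. Much of this spread lay within the vehicle groups. In the DC-101 experiment, Cd8a had 10, 86, 234 and 49 counts in the 4 vehicle tumours, and in the anti-PD1 experiment it had 356, 72 and 16 in the 3 vehicle tumours. In the dose experiment the 4 vehicle tumours had 62, 26, 120 and 34. The range of the members' mean log2 CPM over vehicle tumours was 0.28 to 1.02 in the dose experiment, against -0.75 to 2.14 and -0.39 to 2.51 in those with DC-101 and anti-PD1. The dose experiment thus had the tightest vehicle group.

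**Figure D2:**
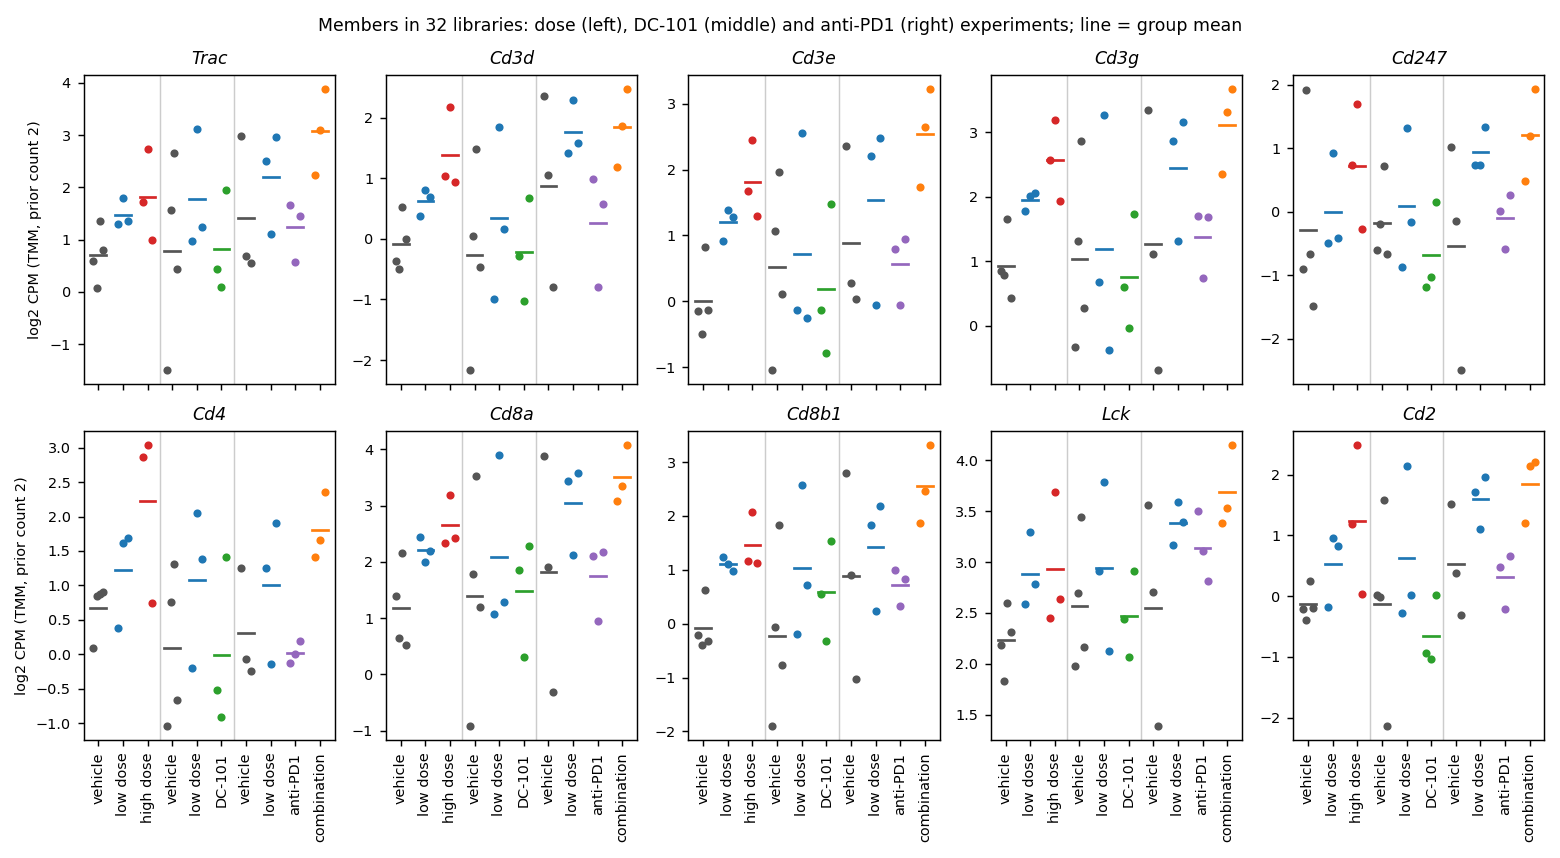
Log2 CPM (TMM-scaled, prior count 2) of each member in the 32 libraries, with groups on the x axis ordered by experiment (dose, DC-101, then anti-PD1). Points are libraries and lines are group means. The 3 high dose libraries lie above all 4 vehicle libraries for Cd3d, Cd3e, Cd3g, Cd8a and Cd8b1, vehicle libraries of the DC-101 and anti-PD1 experiments spread over most of the axis, and the 3 combination libraries lie above the 3 anti-PD1 libraries for each member but Lck.

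The high dose was compared with vehicle within the dose experiment, to ask whether T cell receptor genes changed at the higher exposure. Of the 10 members, 4 rose and 0 fell at an adjusted p under 0.05 (edgeR quasi-likelihood test, 2-sided, Benjamini-Hochberg over 16525 genes). Of all genes, 15.6% were called, 8.8% as higher and 6.82% as lower. The fitted log2 change was above 0 for all 10 members, with a median of 1.61, against a median of 0.02 over all genes tested, of which 51.4% were above 0. At an unadjusted p under 0.05 stood 9 of the 10, where 40.1% of all genes stood. In bulk tumour RNA, more T cells and more of these transcripts per cell cannot be told apart.

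The CD3 chains hold the receptor together and start its signal, and Cd3d, Cd3e and Cd3g moved alike. Cd3e was at -0.15, -0.5, 0.82 and -0.13 log2 CPM in the vehicle tumours and at 1.67, 2.45 and 1.3 at the high dose. The groups did not overlap, and the fitted log2 change was 1.86 (SE 0.41, adjusted p 0.0347), which is 3.62-fold. Cd3g was at 0.85, 0.79, 1.66 and 0.43 under vehicle and at 2.58, 3.19 and 1.94 at the high dose, again without overlap. Its log2 change was 1.69 (SE 0.38, adjusted p 0.0355). Cd3d was at -0.36, -0.5, 0.52 and -0.01 under vehicle and at 1.04, 2.18 and 0.94 at the high dose. The lowest treated tumour was above the highest vehicle tumour, and Cd3d rose, with a log2 change of 1.61 (SE 0.41, adjusted p 0.0417).

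The receptor and zeta chain genes did not pass. Trac, the constant region of the alpha chain, was at 0.6, 0.07, 1.36 and 0.8 log2 CPM under vehicle and at 1.72, 2.73 and 1.0 at the high dose. High dose replicate 3 lay inside the vehicle range, and the log2 change was 1.24 (SE 0.45, adjusted p 0.0758). Cd247, the zeta chain, was at -0.91, 1.92, -0.66 and -1.48 under vehicle and at 0.73, 1.7 and -0.28 at the high dose. Vehicle replicate 2 was above every high dose tumour, with 65 counts against 7 to 15 in the other 3 vehicle tumours. The log2 change of Cd247 was 0.59 (SE 0.91, adjusted p 0.65), and without vehicle replicate 2 it was 2.09 (adjusted p 0.0988). The other CD3 genes were not raised in that tumour, where Cd3d and Cd3e had 11 counts each.

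Of the coreceptors, Cd8b1, the beta chain of CD8 on conventional cytotoxic T cells, was at -0.21, -0.39, 0.63 and -0.33 log2 CPM under vehicle and at 1.16, 2.07 and 1.13 at the high dose. It rose, and its log2 change was 1.61 (SE 0.38, adjusted p 0.0368). Cd8a, the alpha chain that is also made by some dendritic cells, was at 1.4, 0.64, 2.16 and 0.52 under vehicle and at 2.34, 3.18 and 2.42 at the high dose. Its groups did not overlap either, but the log2 change of 1.39 (SE 0.43) had an adjusted p of 0.0532 in the edgeR test. Cd4, the coreceptor of helper and regulatory T cells, was at 0.09, 0.84, 0.88 and 0.9 under vehicle and at 2.87, 3.04 and 0.75 at the high dose. Replicates 1 and 2 were far above vehicle and replicate 3 was inside its range, and the log2 change of 1.86 (SE 0.55) had an adjusted p of 0.0503 (edgeR). In all, 5 of 10 members had high dose libraries that were all above the vehicle libraries, where 11.7% of all genes did.

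Lck, the kinase that phosphorylates CD3, was at 2.19, 1.83, 2.6 and 2.31 log2 CPM under vehicle and at 2.45, 3.69 and 2.64 at the high dose. These groups overlapped, with a log2 change of 0.79 (SE 0.35, adjusted p 0.124). Cd2, an adhesion receptor of T and NK cells, was at -0.21, -0.39, 0.24 and -0.19 under vehicle and at 1.19, 2.49 and 0.03 at the high dose. Its log2 change was 1.78 (SE 0.56, adjusted p 0.0546). High dose replicate 2 was the highest of the 10 libraries of the experiment for 9 of the 10 genes, Cd247 being the exception.

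How many members were called depended on single libraries and on the fit, while their median size moved less. Without high dose replicate 2, 0 of 10 members passed and their median log2 change was 1.08. Without any 1 of the 4 vehicle tumours, also 0 passed, at medians of 1.52 to 1.9. Without low dose replicate 1 or 2, which enter the same fit, 0 passed at medians of 1.6 and 1.61. Without high dose replicate 3, 8 passed, all but Lck and Cd247. DESeq2 called the same 8 genes, and limma voom called 3 (Cd3e, Cd3g and Cd8b1). The number of calls over all genes moved too, from 2582 to between 15 and 83 without a vehicle tumour and to 7030 without high dose replicate 3. With total count scaling in place of TMM, which moved the median change of all genes from 0.02 to -0.13, 0 members passed and their median was 1.49.

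**Figure D3:**
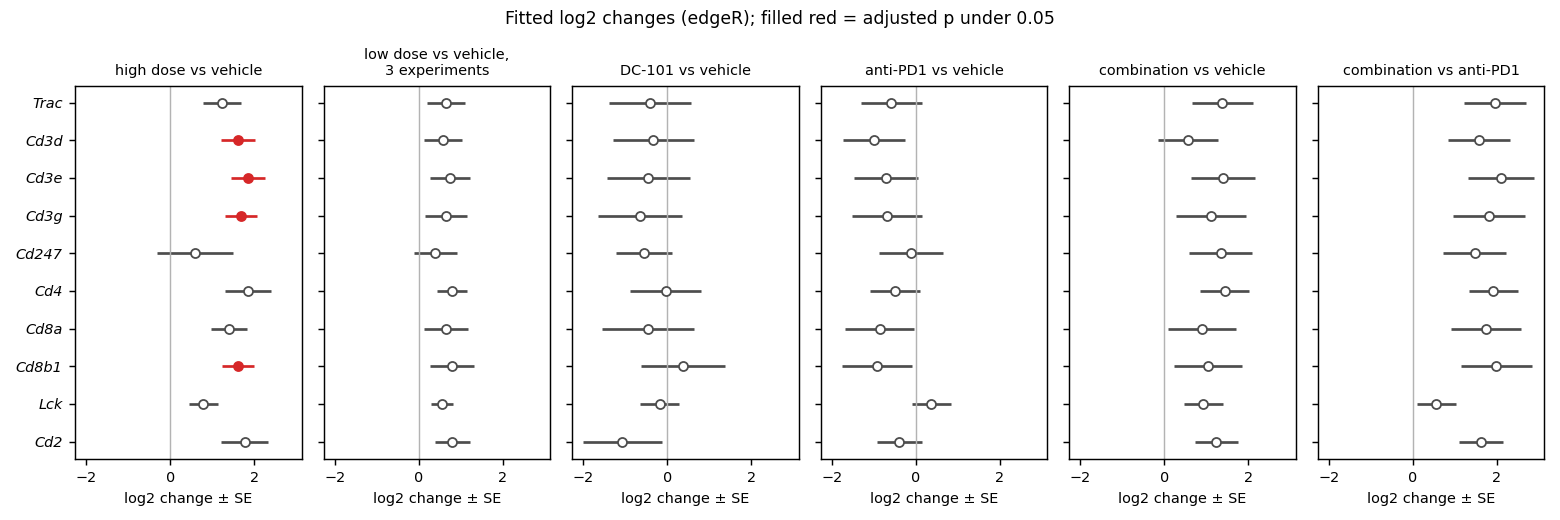
Fitted log2 changes of the 10 members (points) with their standard errors (lines) in 6 comparisons, from edgeR. Filled red points had an adjusted p under 0.05, and they are Cd3d, Cd3e, Cd3g and Cd8b1 at the high dose. Changes are above 0 for all 10 genes at the high dose, at the low dose and in both comparisons of the combination, and below 0 for 9 of 10 under DC-101 and under anti-PD1 alone.

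Markers of other cells moved with the high dose as well, and their part in the result was not tested. The pan-leukocyte list, genes shared by most blood cells, had 5 of 7 genes lower and 0 higher, with a median log2 change of -1.11 and a summed level of 218.0 to 556.0 CPM against 687.0 to 957.0 under vehicle. The macrophage list had 6 of 8 lower (median -1.37), with a summed level of 542.0 to 1330.0 CPM against 1480.0 to 2940.0. The B cell list had 3 of 6 tested genes higher (median 4.3), at 3.45 to 65.7 CPM against 2.16 to 3.74. The NK cell list had 3 of 5 tested genes higher (median 1.77), at 4.54 to 11.3 CPM against 1.6 to 3.01, with the NK receptor genes Klra4 and Klra8 at 0 counts in all 7 libraries. The hepatocyte list had 3 of 20 higher (median 3.83), at 5070.0 to 134000.0 CPM against 1860.0 to 11900.0. The dendritic cell list had 0 of 7 past the threshold and 3 at an unadjusted p under 0.05 (edgeR, median 1.23). Adding the hepatocyte score to the fit gave a median of the members of 1.44 and 0 passed. The log2 change of Cd4 was then 0.82 (adjusted p 0.505 in edgeR), against 1.86 without the score. Those of Cd8a, Cd8b1 and Lck were larger with it, at 1.66, 1.73 and 0.91.

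The members were also set against the pan-leukocyte list within each library. The difference of the members' mean log2 CPM and that of the pan-leukocyte list was -5.88 ± 0.3 (SD, n = 4) under vehicle, -5.36 ± 0.3 (n = 3) at the low dose and -3.3 ± 0.45 (n = 3) at the high dose. The 3 high dose tumours were between -3.75 and -2.86 and the 4 vehicle tumours between -6.2 and -5.5. Over all 32 libraries the high dose tumours held the 3 highest values of this difference.

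**Figure D4:**
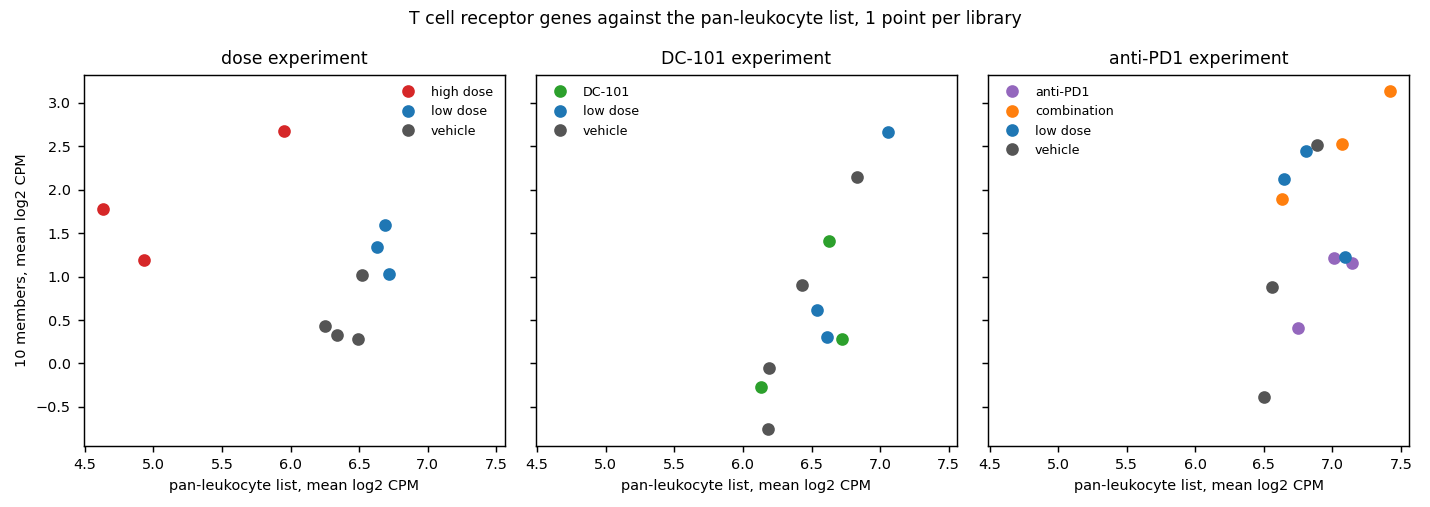
Mean log2 CPM of the 10 members (y axis) against that of the 7 genes of the pan-leukocyte list (x axis), with 1 point per library and 1 panel per experiment. The high dose libraries stand to the left of and above the vehicle libraries. In the anti-PD1 experiment the 3 anti-PD1 libraries (members at 0.41 to 1.21) lie below the 3 combination libraries (1.89 to 3.13).

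The list of 30 genes that carry or regulate T cell receptor signalling was split in direction at the high dose. Of the 27 that were tested, 8 rose and 3 fell, with a median log2 change of 1.28. Zap70, the kinase that binds phosphorylated CD3 and zeta chains, rose by 2.5 (SE 0.48, adjusted p 0.0278), and Cd28, the main costimulatory receptor, rose by 2.02 (SE 0.43, adjusted p 0.0324). The other 6 that rose had log2 changes of 1.42 to 2.04. Bcl10, an adaptor of NF-kB signalling in many cell types, fell by 0.83 on the log2 scale (SE 0.17, adjusted p 0.0313). Tcf7, a transcription factor of naive and memory T cells and of other tissues, fell by 0.97 (SE 0.21, adjusted p 0.033), and Lcp2, an adaptor also used in myeloid cells that is named here after its value was seen, fell by 0.91 (SE 0.25, adjusted p 0.0465). Each of these 11 calls was lost in 9 (Zap70) to 14 (Icos among them) of 17 alternatives. None of the list passed (0) without any 1 of the vehicle tumours, without low dose replicate 1 or 2, with a replicate block or with the hepatocyte score as a covariate. Without high dose replicate 2, 0 were higher and 2 lower, and without high dose replicate 3, 14 were higher and 4 lower. DESeq2 called 15 higher and 4 lower. The genes that fell had median counts over the 32 libraries of 1820.0 for Bcl10, 542.0 for Tcf7 and 1020.0 for Lcp2. Of those that rose, Zap70 had 30.5 and Cd28 26.0.

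Of the 6 other receptor constant genes, 1 of 6 rose at the high dose. It was Trbc2, a beta chain constant gene, with a log2 change of 2.04 (SE 0.5, adjusted p 0.0395). The call was lost in 13 of 17 alternatives, at log2 changes of 1.61 to 2.35 in those without 1 library. Trbc1 and Trbc2 are near-identical copies, so reads may be split between them and their separate counts are uncertain. Their level followed that of Trac, with Trbc2 at -0.08 ± 0.46 log2 CPM (SD, n = 4) under vehicle and at 1.81 ± 0.77 (n = 3) at the high dose, and Trbc1 at -0.17 ± 0.86 and 1.38 ± 0.48. The median log2 change of the 6 genes was 1.94.

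The direct comparison of high with low dose asked whether the members differed between exposures. No member passed the threshold (0 of 10 in edgeR, DESeq2 and limma voom), where 4.22% of all genes did, and 0 of 10 had an unadjusted p under 0.05 in edgeR and 2 in DESeq2. The log2 change was above 0 for all 10 (54.0% of all genes), from 0.12 for Lck to 1.21 for Cd4, with a median of 0.71 against 0.07 over all genes. Without high dose replicate 2 the median was 0.16, with 8 of 10 above 0. Of other cells, whose part was not tested, the pan-leukocyte list had 4 of 7 genes lower and 0 higher (median -1.7) and the macrophage list 6 of 8 lower and 0 higher (-2.08). The B cell list was above 0 for 6 of 6 tested genes (2.85) and the hepatocyte list for 20 of 20 (2.27), with 0 of each past the threshold and 4 and 1 at an unadjusted p under 0.05 in edgeR. Only Cd3d had groups without overlap (1 of 10 members, 11.5% of all genes), at 0.38 to 0.81 log2 CPM at the low dose and 0.94 to 2.18 at the high dose. Its log2 change was 0.91 (SE 0.44, adjusted p 0.193). Cd4 passed in 1 alternative, without high dose replicate 3, with a log2 change of 1.61 (adjusted p 0.0332 in edgeR). Of the signalling list, Lcp2 (-1.6, SE 0.27, adjusted p 0.0199) and Vav1 (-1.76, SE 0.37, adjusted p 0.0381), a signalling protein of all blood cells, fell and Plcg1 (0.52, SE 0.12, adjusted p 0.0439), a phospholipase of many cell types, rose. These calls were lost in 3, 10 and 12 of 17 alternatives in that order, that of Lcp2 without low dose replicate 1 or 2 and with a replicate block. Those of Vav1 and Plcg1 were lost without any 1 of the vehicle or low dose tumours, and that of Plcg1 also without high dose replicate 1 or 2. Of the 6 other constant genes, 0 passed and 0 had an unadjusted p under 0.05 in edgeR.

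Each experiment had a low dose group, and a joint fit of the 9 low dose and 11 vehicle libraries, with experiment as a term, asked which members changed in common. None of the 10 passed (0 in edgeR, DESeq2 and limma voom), where 1.52% of 17238 genes did. At an unadjusted p under 0.05 stood Cd4 (log2 change 0.8, SE 0.36, adjusted p 0.295) and Lck (0.55, SE 0.26, adjusted p 0.311), 2 of 10, where 15.6% of all genes stood. The log2 change was above 0 for all 10 members, from 0.39 for Cd247 to 0.8 for Cd4 and Cd2, with a median of 0.65 against 0.02 over all genes. Over all genes 53.2% were above 0. In each of the 20 fits without 1 library, all 10 members stayed above 0, and their median was between 0.38 (with the DC-101 batch's low dose replicate 2 left out) and 0.97. The number at an unadjusted p under 0.05 in edgeR was 0 to 6 in these fits, with 6 when vehicle replicate 1 of the anti-PD1 experiment was left out. Of the markers of other cells, 1 macrophage gene passed as higher and 0 of the other lists passed, and their part in the result was not tested. The hepatocyte list was above 0 for 20 of 20 genes (median 1.33), the B cell list for 5 of 5 tested (1.15), the dendritic cell list for 6 of 7 (0.69), the NK cell list for 5 of 6 (0.4), the pan-leukocyte list for 6 of 7 (0.32) and the macrophage list for 7 of 8 (0.17). The sign of the hepatocyte list differed between experiments, with medians of 1.53 (dose), 3.13 (DC-101) and -1.77 (anti-PD1). With a hepatocyte covariate the median of the members was 0.61, and 0 had an unadjusted p under 0.05 in edgeR.

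The 3 experiments gave similar sizes with unequal precision. The median log2 change of the members at the low dose was 0.75 beside the high dose, 0.57 beside DC-101 and 0.56 beside anti-PD1. Of the 10 members, 0 passed in any of them by edgeR, DESeq2 or limma voom, where 0.0%, 0.0248% and 0.0% of all genes did by edgeR. In the dose experiment 9 of 10 changes were above 0 (50.1% of all genes and Cd247 at -0.24), and 3 of 10 had an unadjusted p under 0.05 and groups without overlap, against 4.94% and 6.96% of all genes. They were Cd3e (1.16, SE 0.41, adjusted p 0.917), Cd3g (0.97, SE 0.38, adjusted p 0.989) and Cd8b1 (1.17, SE 0.37, adjusted p 0.843). Cd8b1 was at 1.23, 1.1 and 0.97 log2 CPM at the low dose, above the 4 vehicle values of -0.21, -0.39, 0.63 and -0.33. Over all genes 817 had an unadjusted p under 0.05 there. Markers of other cells had 0 genes past the threshold, and their part was not tested. The macrophage list was above 0 for 8 of 8 genes (median 0.74, 5 at an unadjusted p under 0.05 in edgeR), the NK cell list for 5 of 5 tested (1.2, 4 at that p), the B cell list for 6 of 6 tested (1.26) and the hepatocyte list for 20 of 20 (1.53). With the hepatocyte covariate the median of the members was 0.7.

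In the DC-101 experiment the low dose result was carried by replicate 2. Cd3e was at -0.13, 2.56 and -0.26 log2 CPM in the low dose tumours and at -1.04, 1.06, 1.97 and 0.11 under vehicle, and Cd8a was at 1.07, 3.9 and 1.28 against -0.92, 1.79, 3.52 and 1.2. The groups of all 10 overlapped (6.94% of all genes were higher and 9.47% lower without overlap), all 10 log2 changes were above 0 (0.42 to 1.12, with 51.3% of all genes above 0), and 0 had an unadjusted p under 0.05, where 17.1% of all genes had. Without low dose replicate 2, Cd4 alone stayed above 0 (1 of 10) and the median was -0.49. It was 0.27, 1.52 and 0.34 without vehicle replicates 1, 3 and 4, 0.99 and 0.95 without low dose replicates 1 and 3, and 0.2 with the hepatocyte covariate. The hepatocyte list was above 0 for 20 of 20 genes (median 3.13) and the dendritic cell list for 6 of 6 tested (1.25), and their part was not tested. In the anti-PD1 experiment 9 of 10 log2 changes were above 0 (52.9% of all genes), with Cd8b1 at 0.999-fold. The groups of all 10 overlapped (6.68% of all genes were higher and 7.36% lower without overlap) and 0 had an unadjusted p under 0.05, where 11.8% of all genes had. Without vehicle replicate 1 of this experiment, 8 of 10 had an unadjusted p under 0.05 in edgeR. The median was 1.69, 0.29 and 0.17 without vehicle replicates 1, 2 and 3, with 10, 9 and 7 of 10 above 0, and 0.91 and 0.25 without low dose replicates 2 and 3. It was -0.08 with the hepatocyte score as a covariate, which left 5 of 10 above 0. The hepatocyte list was above 0 for 2 of 20 genes (median -1.77, 10 at an unadjusted p under 0.05 in edgeR) and the B cell list for 6 of 6 tested (1.51, 3 at that p), and their part was not tested. A test of the difference of the low dose change between experiments gave 0 of 10 members past the threshold and 0 at an unadjusted p under 0.05 (edgeR, smallest p 0.601 for Cd8b1), where 9.83% of all genes had an unadjusted p under 0.05.

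Beside anti-PD1, low dose replicate 2 stood apart in the ratio of its CD3 genes. It had 88 counts of Cd3d but 16 of Cd3e and 44 of Cd3g, while replicates 1 and 3 had 69 and 65 of Cd3d beside 121 and 122 of Cd3e. The difference of Cd3d and Cd3e in log2 CPM was 2.35 in this tumour, and over all 32 libraries it was -0.35 ± 0.65 (SD, n = 32).

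Of the signalling list, 1 of 28 tested genes passed in the fit over 3 experiments by edgeR, while DESeq2 called 4 higher and 1 lower. Tcf7 fell by 0.72 on the log2 scale (SE 0.16, adjusted p 0.0267), while the median of the list was 0.44. Over the 32 libraries, centred on each experiment's mean, Tcf7 did not follow the members' mean (Pearson's r = -0.18, rho = -0.25). It lost the threshold in 8 of 30 alternatives, at log2 changes of -0.8 to -0.62 in those without 1 library. Tcf7 was at 5.08 ± 0.15 log2 CPM (SD, n = 4) under vehicle and 4.37 ± 0.15 (n = 3) at the low dose in the dose experiment, at 5.1 ± 0.25 and 4.01 ± 0.55 beside DC-101, and at 4.66 ± 0.38 and 4.29 ± 0.53 beside anti-PD1. Within the experiments it had adjusted p-values of 0.795 (log2 change -0.71) and 0.131 (-1.04) in the first and second of these (edgeR). In the dose experiment the smallest unadjusted p of the lists was that of Ubash3a, a phosphatase that restrains receptor signalling (1.57, SE 0.45, adjusted p 0.795). In the DC-101 experiment the next after Tcf7 was Nfatc1 (-0.63, SE 0.2, adjusted p 0.188). Beside anti-PD1 the first were the gamma chain gene Tcrg-C1 (1.48, SE 0.66, adjusted p 0.413) and Cd5 (1.6, SE 0.75, adjusted p 0.437). For the difference between experiments they were Nfatc1 (adjusted p 0.613) and Tcf7 (adjusted p 0.659).

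DC-101 against vehicle asked whether blocking VEGFR2 alone moved these genes. No member passed (0 of 10 in edgeR, DESeq2 and limma voom, and 0 at an unadjusted p under 0.05 in each), where 0.0% of 16138 genes passed in edgeR and 373 did in DESeq2. Over all genes 13.2% had an unadjusted p under 0.05. Cd3e was at -0.13, -0.79 and 1.47 log2 CPM under DC-101 and Cd8a at 1.86, 0.31 and 2.28, inside the vehicle ranges given above. The groups of all 10 members overlapped, where 5.27% of all genes were higher and 8.17% lower without overlap. The log2 change was above 0 for 1 of 10 members (48.8% of all genes), from -1.07 (SE 0.95) for Cd2 to 0.37 (SE 1.0) for Cd8b1, with a median of -0.43. Limma voom, which averages log values, had 4 of 10 above 0 with a median of -0.13, and the fit with a replicate block 3 of 10 with -0.22. This direction rested on vehicle replicate 3, the vehicle tumour with the highest members, and without it 8 of 10 were above 0 and the median was 0.41. Without any 1 other library the median was between -1.2 (DC-101 replicate 3) and -0.01 (DC-101 replicate 2). The hepatocyte list was above 0 for 20 of 20 genes (median 3.67) and the NK cell list for 0 of 6 (median -1.25), and their part in the result was not tested. With the hepatocyte covariate the median of the members was -0.9, and 1 of 10 stayed above 0. The first 2 genes of the lists by unadjusted p were Tcf7 (-0.69, SE 0.26, adjusted p 0.346) and Plcg1 (-0.38, SE 0.15, adjusted p 0.351).

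The low dose was also set against DC-101 directly. All 10 log2 changes were above 0 (48.2% of all genes), from 0.6 (SE 0.5) for Lck to 1.78 (SE 1.0) for Cd2, with a median of 1.02. None passed (0 of 10 by edgeR, DESeq2 and limma voom, and 0 at an unadjusted p under 0.05), where 0.0% of all genes passed in edgeR and 8.45% had an unadjusted p under 0.05. The groups overlapped for all 10, where 5.48% of all genes were higher and 5.96% lower without overlap. Without low dose replicate 2 the median was -0.12, with 5 of 10 above 0, and without DC-101 replicates 2 and 3 it was 0.58 and 1.71. The NK cell list was above 0 for 6 of 6 tested genes (median 1.18), the dendritic cell list for 6 of 6 (0.81) and the hepatocyte list for 0 of 20 (-0.56), and their part was not tested. With the hepatocyte covariate the median of the members was 1.08. Of the lists, Nfatc1 (-0.49, SE 0.22, adjusted p 0.593) and Lcp2 (0.6, SE 0.27, adjusted p 0.598) had the smallest p.

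Anti-PD1 alone was compared with vehicle to ask what the antibody did by itself. Trac was at 1.67, 0.58 and 1.45 log2 CPM under anti-PD1 and at 2.98, 0.69 and 0.55 under vehicle, and Cd8a was at 2.11, 0.95 and 2.18 against 3.88, 1.9 and -0.32. Vehicle replicate 1 was above all 3 anti-PD1 tumours for both genes. The groups of all 10 overlapped, where 7.45% of all genes were higher and 9.18% lower without overlap. The fitted log2 change was above 0 for 1 of 10 members (45.4% of all genes), Lck at 0.37 (SE 0.46), and the median was -0.64. None passed (0 of 10 in edgeR, DESeq2 and limma voom, 0 at an unadjusted p under 0.05), where 0.0% of 16615 genes passed in edgeR, 614 did in DESeq2 and 13.7% had an unadjusted p under 0.05. Without vehicle replicate 1 all 10 were above 0 and the median was 0.59, and without vehicle replicates 2 and 3 it was -0.98 and -1.03. Markers of other cells had 0 genes past the threshold in edgeR, and their part in the result was not tested. The NK cell list had a median of -2.38, with 5 of 6 genes at an unadjusted p under 0.05 in edgeR, and the hepatocyte list a median of -2.25, with 17 of 20. The B cell and dendritic cell lists had medians of -1.19 and -0.86. With the hepatocyte covariate the median of the members was -1.7, and 1 of 10 was above 0. The fit compares means of counts, and limma voom, which averages log values, had 3 of 10 above 0. In the alternatives that left no library out, the median of the members was -1.7 to -0.18. Csk, the kinase that restrains Lck (0.65, SE 0.2, adjusted p 0.251), and Malt1 (-0.64, SE 0.28, adjusted p 0.336) came first in the lists.

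By group mean, the combination had the highest members of the anti-PD1 experiment, though single tumours overlapped. Vehicle replicate 1 (members' mean log2 CPM 2.51) was above combination replicate 1 (1.89). The combination was compared with each of the other 3 groups. Against vehicle, 0 of 10 passed in edgeR, DESeq2 and limma voom, where 0.0% of all genes passed in edgeR. By edgeR alone, 2 of 10 had an unadjusted p under 0.05, where 8.2% of all genes had. They were Cd4 (1.44, SE 0.58, adjusted p 0.565) and Cd2 (1.24, SE 0.52, adjusted p 0.572). All 10 log2 changes were above 0 (46.0% of all genes), with a median of 1.18, which was 2.4 without vehicle replicate 1 and 0.7 without vehicle replicate 3. In the alternatives that left no library out, the median was 0.95 to 1.68. Without vehicle replicate 1, 9 of 10 had an unadjusted p under 0.05 in edgeR. Cd4 was at 1.41, 1.66 and 2.36 log2 CPM in the combination and at 1.26, -0.07 and -0.24 under vehicle, and it was the 1 member of 10 whose groups did not overlap, where 9.59% of all genes were higher without overlap. The NK cell list was above 0 for 5 of 6 tested genes (median 0.93), the B cell list for 6 of 6 (0.95), the dendritic cell list for 6 of 7 (0.7), the pan-leukocyte list for 5 of 7 (0.41), the macrophage list for 7 of 8 (0.25) and the hepatocyte list for 11 of 20 (0.04), and their part was not tested. At an unadjusted p under 0.05 in edgeR stood 2 pan-leukocyte and 2 macrophage genes. With the hepatocyte covariate the median of the members was 0.95. Cd5 (2.41, SE 0.76, adjusted p 0.483) and Vav1 (0.93, SE 0.34, adjusted p 0.52) came first in the lists.

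Against anti-PD1 alone, the 3 combination tumours were above the 3 anti-PD1 tumours for 9 of 10 members, where 16.0% of all genes were higher without overlap. Cd4 was at -0.13, 0.01 and 0.2 log2 CPM under anti-PD1 and at 1.41, 1.66 and 2.36 in the combination, with a log2 change of 1.92 (SE 0.59, adjusted p 0.472). Cd3e was at 0.8, -0.06 and 0.94 and at 1.74, 2.64 and 3.23, with a log2 change of 2.1 (SE 0.79, adjusted p 0.495), the largest of the 10. Cd8b1 was at 0.99, 0.32 and 0.83 and at 1.87, 2.46 and 3.32, with a change of 1.99 (SE 0.84, adjusted p 0.541). Lck was the exception, at 3.5, 3.11 and 2.81 under anti-PD1 and at 3.38, 3.53 and 4.15 in the combination (0.56, SE 0.46, adjusted p 0.778).

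These differences did not pass the threshold over all genes. At an unadjusted p under 0.05 stood 5 of 10 members in edgeR (Trac, Cd3e, Cd4, Cd8b1 and Cd2), 9 in DESeq2 and 4 in limma voom, where 8.68% of all genes stood in edgeR, and 0 of 10 passed after adjustment in any of the 3. No gene passed in edgeR (0.0%), and 210 did in DESeq2. The median log2 change of the members was 1.78, against 0.0 over all genes, and it was 1.45 to 2.03 in the 12 fits without 1 library, with all 10 above 0 in each (49.6% of all genes were above 0). Of the signalling list 14 of 28 had an unadjusted p under 0.05 (median 1.31). Cd27, a costimulatory receptor (2.66, SE 0.71, adjusted p 0.472), and Icos (2.75, SE 0.77, adjusted p 0.472) came first. DESeq2 called both, Cd27 at an adjusted p of 0.0371 and Icos at 0.0407.

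Markers of other cells also had 0 genes past the threshold in edgeR, and their part was not tested. The NK cell list was at a mean log2 CPM of 0.59 to 1.06 in the combination, with a summed level of up to 14.0 CPM, and at -2.73 to -1.22 under anti-PD1, with a summed level of 0.581 to 3.08 CPM (median log2 change 2.65, 5 of 6 at an unadjusted p under 0.05). The dendritic cell list was at 0.44 to 1.74 against -1.38 to -0.21 (median log2 change 1.3, 4 of 7 at an unadjusted p under 0.05 in edgeR), and the B cell list at -0.3 to 0.8 against -1.52 to -1.16 (median 1.76, 3 of 6). Neither overlapped. The hepatocyte list was at 5770.0 to 26400.0 CPM against 1330.0 to 3830.0 (median 2.75, 19 of 20). The pan-leukocyte list overlapped, at 945.0 to 1650.0 CPM against 1190.0 to 1450.0, as did the macrophage list at 2980.0 to 4960.0 against 3540.0 to 5430.0. Adding the hepatocyte score to the fit gave a median of the members of 2.54 and 0 passed.

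The combination was last set against the low dose alone. All 10 log2 changes were above 0 (46.1% of all genes), from 0.12 (SE 0.71) for Cd3d to 1.05 (SE 0.81) for Cd8b1, with a median of 0.49, which was 0.2 without combination replicate 3 and 0.3 to 0.79 without any 1 of the other libraries. With the hepatocyte covariate it was 1.07. The hepatocyte list was above 0 for 20 of 20 genes (median 1.62, 9 at an unadjusted p under 0.05 in edgeR), the dendritic cell list for 7 of 7 (0.87), the NK cell list for 6 of 6 tested (0.64) and the B cell list for 0 of 6 (-0.84), and their part was not tested. None passed (0 of 10 in edgeR, DESeq2 and limma voom, 0 at an unadjusted p under 0.05), where 0.0% of all genes passed and 3.64% had an unadjusted p under 0.05. The groups of all 10 overlapped, where 5.99% of all genes were higher and 5.81% lower without overlap. Fyn, a kinase related to Lck (0.53, SE 0.28, adjusted p 0.889), and Lat, the adaptor that links the receptor to its downstream enzymes (0.82, SE 0.6, adjusted p 0.889), came first in the lists.

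The balance of coreceptors was read as the difference of Cd8a and Cd4 in log2 CPM within a library. It depends on the scaling of that library only through the prior count. It was 1.24 ± 0.92 (SD, n = 32) over all tumours, from -0.53 to 2.62. At the low dose it differed from vehicle by 0.24 as a mean over the 3 experiments (exact permutation test within experiments, 2-sided, p = 0.58, 24500 arrangements). Within the experiments the difference was 0.48 (dose), -0.3 (DC-101) and 0.54 (anti-PD1), with exact permutation p-values of 0.571, 0.686 and 0.8, values added after the data were seen. The spread within groups was mostly close to 1 log2 unit, with 0.5 ± 0.92 (n = 4) under vehicle and 0.43 ± 1.13 (n = 3) at the high dose in the dose experiment. The combination tumours lay together, at 1.67 to 1.72, while the vehicle tumours of that experiment ranged from -0.08 to 2.62.

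**Figure D5:**
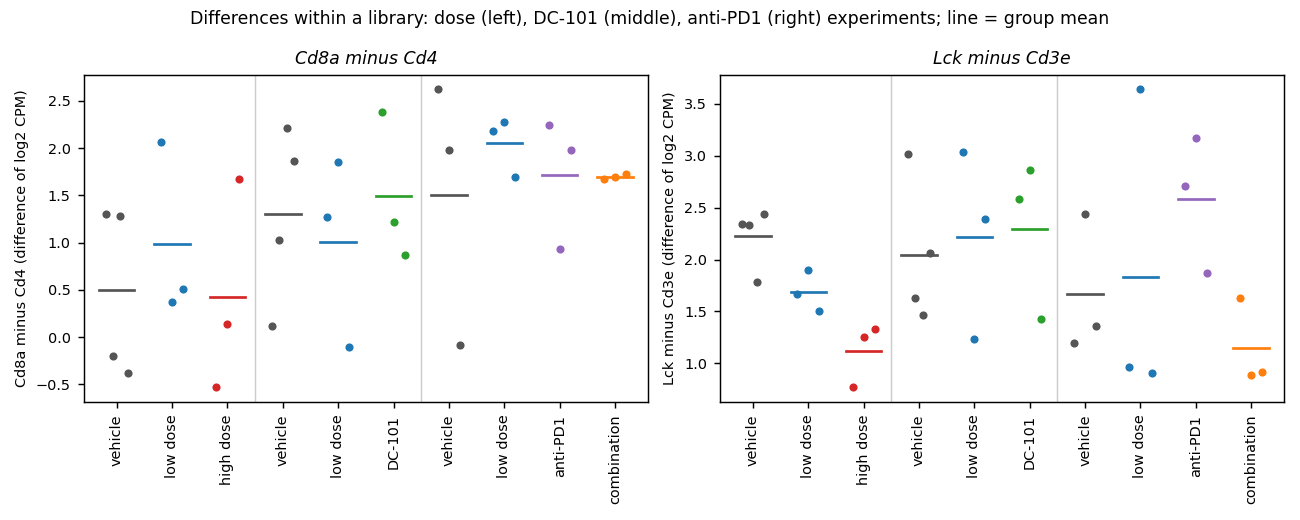
Difference within a library of Cd8a and Cd4 (left) and of Lck and Cd3e (right), in log2 CPM, by group, with points for libraries and lines for group means. Cd8a minus Cd4 ranges from -0.53 to 2.62 with overlap between all groups of an experiment, and Lck minus Cd3e at the high dose (mean 1.12) lies below vehicle (mean 2.22).

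Lck did not keep a fixed ratio to Cd3e, which is described here without a test. The difference of Lck and Cd3e in log2 CPM was 2.22 ± 0.3 (SD, n = 4) under vehicle and 1.12 ± 0.3 (n = 3) at the high dose in the dose experiment, with ranges of 1.78 to 2.44 and 0.77 to 1.33. It was 2.58 ± 0.66 under anti-PD1 and 1.15 ± 0.42 in the combination (n = 3 each), also without overlap. The low dose overlapped vehicle in each experiment, with means of 1.69 against 2.22 (dose), 2.22 against 2.04 (DC-101) and 1.84 against 1.67 (anti-PD1). Over all libraries the difference ran from 0.77 to 3.64. In the DC-101 experiment, vehicle replicate 1 had 88 counts of Lck beside 3 of Cd3d, 9 of Cd3e and 6 of Trac.

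The CD8 chains had a similar spread of their difference to the CD3 pair of Cd3g and Cd3e. The difference of Cd8b1 and Cd8a was -1.18 ± 0.38 (SD, n = 32), with a range of -1.97 to -0.57, and that of Cd3g and Cd3e was 0.67 ± 0.39. In the anti-PD1 experiment the CD8 difference was -1.9 to -1.39 at the low dose, below vehicle (-1.08 to -0.71) and the combination (-1.21 to -0.77) without overlap. In the other 2 experiments its low dose mean was above vehicle, at -1.05 against -1.62 (DC-101) and -1.11 against -1.25 (dose), with overlap.

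Likeness of pattern was described by Pearson's r over the 32 libraries, on log2 CPM centred on each experiment's mean. These points share libraries, scaling and treatment groups, so r is a description. Cd3g (r = 0.96 with the mean of the other 9, rho = 0.93), Trac (0.94, 0.95), Cd3e (0.94, 0.93) and Cd8b1 (0.94, 0.92) followed the others most closely, and Cd247 (0.75, 0.71) and Lck (0.84, 0.79) least. The closest pairs were Cd3e with Cd3g and Cd8a with Cd8b1 (0.95 each), and the weakest by r was Cd4 with Lck (0.64, rho 0.61). By rho it was Cd247 with Lck (r = 0.69, rho = 0.59), whose r was 0.51 without the 2 libraries farthest from the median, against 0.61 for Cd4 with Lck. Cd4 with Cd8a gave 0.75.

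Of 15419 other genes tested in all 3 experiments, those most like the members' mean included Trbc2 (r = 0.97, rho = 0.97), Nkg7 (0.93, 0.94), Ms4a4b (0.93, 0.93), Cxcr3 (0.92, 0.91), Cd96 (0.92, 0.91), Ptprcap (0.91, 0.92), Cxcr6 (0.91, 0.9), Tbx21 (0.9, 0.9) and Tcrg-C2 (0.9, 0.92). Without the 2 libraries farthest from the median, r was between 0.88 and 0.96 for them. The mean of the dendritic cell list gave r = 0.78, of the NK cell list 0.66, of the B cell list 0.56, of the hepatocyte list 0.3, of the pan-leukocyte list 0.2 and of the macrophage list 0.02. Without the 2 farthest libraries these were 0.74, 0.63, 0.48, 0.16, 0.42 and 0.13 in that order, with the pan-leukocyte list then above the hepatocyte list.

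Reads of overlapping genes could enter some counts. Which strand column of the counter was deposited is not given in the sources used here, and the kit marks strand. Cd247 shares 12124 bases with Pou2f1 on the opposite strand, which had 116 to 1198 counts, and 541 in the vehicle tumour with 65 counts of Cd247, against a median of 572.0. These counts are not scaled for depth, and that tumour had the smallest library, at 16.8 M counts. Cd3e shares 3557 bases with Gm48719 on the opposite strand, which had 0 counts in all libraries, and Lck holds the miRNA gene Mir8119, with 0 or 1 count. On the same strand, Cd3e shares 1206 bases with Gm48720 (0 or 1 count) and Cd247 shares 687 with Gm16565 (0 to 3 counts).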

How the data were processed

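RNA of BNL-MEA tumours from BALB/c mice was sequenced as 32 libraries in 10 groups and 3 batches. The authors removed adapters with cutadapt 2.4, aligned reads to GRCm38 with STAR 2.7.2a and deposited raw counts per Gencode gene and library, without normalization. Replicates are separate samples in the labels. Whether each is a separate animal is not stated there, and p-values measure the spread between these samples.

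The members and lists were chosen with earlier results of these data known. Of 54446 genes, 54409 were matched to Gencode M21 coordinates on GRCm38. Counts were filtered with filterByExpr (minimum count 10, minimum total 15), scaled by TMM and fitted per experiment with edgeR 4.0.16 in R 4.3.3 (robust quasi-likelihood F-test, 2-sided, Benjamini-Hochberg over all genes, threshold 0.05). This tested 16525, 16138 and 16615 genes in the experiments with the high dose, DC-101 and anti-PD1. The low dose was also fitted over 3 experiments (17238 genes). Log2 CPM had a prior count of 2. The code was tested on simulated data.

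All members were tested and counted in every comparison, and single values are given for some of them. From the signalling and constant lists, genes past the threshold were named by smallest p (at most 4 per comparison), or else the 2 with the smallest unadjusted p, and Trbc1 and Trbc2 as near-identical copies. The 10 genes of highest Pearson r with the members' mean were ranked as most alike, of which 1 is not reported here. A list was described by counts and medians, and its level in a library as summed CPM or mean log2 CPM. The Cd8a to Cd4 difference was tested by exact permutation within experiments.

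Libraries of a group were checked for duplication (chi-square per degree of freedom 13.971 to 918.5 over 36 pairs), and none was counted as one. Alternatives were other scaling (RLE, total count), no filter, DESeq2 1.42.0, limma 3.58.1 voom, a replicate block, a hepatocyte covariate, each library or experiment left out and a prior count of 0.5. All 32 columns were used. Reads carried no molecular identifiers in the sources used here, so intervals cover counting error only.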

Additional observations from a re-analysis of the deposited data

Results flagged for a closer look

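Groups of 4 libraries were screened for a library far from the other 3, over 22 sets of values (10 members and the Cd8a to Cd4 difference in 2 vehicle groups), and chance flags about 1 in 20. In the dose experiment, Cd4 in vehicle replicate 1 was at 0.09 log2 CPM (24 counts), below the other 3 vehicle tumours at 0.84, 0.88 and 0.9. The gap took up 0.92 of the group's range, above the critical value of 0.829. Without this tumour the high dose change of Cd4 was 1.69 on the log2 scale (adjusted p 0.118 in edgeR, against 1.86 and 0.0503 with it).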

How the results depend on the processing

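The 4 calls of members at the high dose were lost in 12 (Cd3d), 11 (Cd3e), 11 (Cd3g) and 11 (Cd8b1) of 17 alternatives, with log2 changes that kept their direction. At the high dose, 0 members passed with total count scaling, without the filter and with the hepatocyte covariate, and 8 passed with DESeq2. Without 1 library the number that passed was 0 to 8 at the high dose, and 0 to 1 for the high against the low dose. In other comparisons 0 members passed under every alternative run. Over all genes, the 2582 calls at the high dose became 282 with total count scaling, 416 without the filter, 5275 with DESeq2, 1349 with limma voom and 159 with the hepatocyte covariate. The 697 calls of the high against the low dose became 198, 309 and 3059 with the first 3 of these. The 262 calls of the low dose over 3 experiments became 153 without the filter, 1061 with DESeq2, and 68, 35 and 394 without the dose, DC-101 and anti-PD1 experiment. Without 1 library, these counts were 15 to 7030, 62 to 4488 and 155 to 333. Where edgeR called 0 to 4 genes, DESeq2 called 85, 1097 and 425 for the low dose within the dose, DC-101 and anti-PD1 batches, 373 for DC-101, 203 for the low dose against DC-101, 614 for anti-PD1, and 150 and 210 for the combination against vehicle and against anti-PD1. The Cd8a to Cd4 difference was -0.02 to 0.43 without 1 library, against 0.24, and below 0 only without replicate 3 of the anti-PD1 vehicle. The cause of these shifts was not tested.

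Whether replicate numbers pair the samples was not settled. Same-numbered libraries had correlated deviations (over 0.1) in 2 of 9 (dose), 4 of 9 (DC-101) and 6 of 18 (anti-PD1) pairs. The correlations ran from -0.722 to 0.555, -0.459 to 0.669 and -0.284 to 0.616 in that order. Libraries with different numbers were not compared in this way, so the check cannot decide it. With a replicate block, 0 members and 1 gene in all passed at the high dose (median 1.51), and 1 gene passed for the high against the low dose. Under DC-101 against vehicle the block turned Cd3d to 0.02 and Cd8a to 0.04, and for the low dose of the anti-PD1 experiment it turned Cd8b1 to 0.05.

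Direction also changed in single genes that had not passed. Under DC-101 against vehicle, Cd4 was 0.01 without the filter and 0.0 in DESeq2, and limma voom gave Trac 0.04, Cd3d 0.12 and Cd8a 0.11. For the low dose of the anti-PD1 experiment, Cd8b1 was 0.03 with total count scaling, 0.0 without the filter and 0.59 in limma voom, and the hepatocyte covariate gave Trac -0.55, Cd3e -0.45, Cd3g -0.4 and Cd8a -0.19. Limma voom gave Cd247 0.44 for the low dose of the dose experiment, and Cd3g 0.13 and Cd247 0.6 for anti-PD1 against vehicle.

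Log2 changes that crossed 0 without 1 library had these ranges. For low dose against vehicle in the dose experiment, they were Cd247 -0.86 to 1.26. For high dose against vehicle in the dose experiment, they were Cd247 -0.05 to 2.09. For high dose against low dose in the dose experiment, they were Trac -0.1 to 0.81 and Lck -0.37 to 0.35. For low dose against vehicle in the DC-101 experiment, they were Trac -0.33 to 1.53, Cd3d -0.6 to 1.53, Cd3e -1.18 to 1.12, Cd3g -1.36 to 1.47, Cd247 -0.44 to 0.95, Cd8a -0.98 to 1.67, Cd8b1 -0.09 to 2.4, Lck -0.1 to 0.8 and Cd2 -0.54 to 1.6. For DC-101 against vehicle in the DC-101 experiment, they were Trac -1.23 to 0.44, Cd3d -0.94 to 0.61, Cd3e -1.44 to 0.22, Cd3g -1.29 to 0.38, Cd4 -1.21 to 0.49, Cd8a -0.87 to 0.65, Cd8b1 -0.24 to 1.65 and Lck -0.41 to 0.2. For low dose against DC-101 in the DC-101 experiment, they were Cd3d -0.3 to 1.52, Cd3e -0.77 to 1.88, Cd3g -0.75 to 1.73, Cd8a -0.55 to 1.42 and Cd8b1 -0.5 to 1.36. For low dose against vehicle in the anti-PD1 experiment, they were Cd3d -0.04 to 1.45, Cd8a -0.03 to 1.99 and Cd8b1 -0.52 to 1.43. For anti-PD1 against vehicle in the anti-PD1 experiment, they were Trac -0.96 to 0.7, Cd3d -1.48 to 0.01, Cd3e -1.09 to 0.48, Cd3g -1.21 to 0.99, Cd247 -0.66 to 0.94, Cd4 -0.76 to 0.19, Cd8a -1.39 to 0.66, Cd8b1 -1.45 to 0.52, Lck -0.03 to 0.97 and Cd2 -0.74 to 0.29. For combination against low dose in the anti-PD1 experiment, they were Cd3d -0.26 to 0.44 and Cd247 -0.09 to 0.68. The lowest count of a member in a library was 2, with an exact 95% Poisson interval of 0.242 to 7.22. Whether low counts account for these ranges was not tested.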
